A study of Mus musculus with 18 samples.

Results

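Potassium channel genes were followed through the nuclei of the embryonic mouse forebrain. The set holds every gene of the tables whose symbol begins with Kcn and a further lower-case letter, with antisense and overlapping transcripts left out, and with a mean level of at least 5 CPM (UMI counts scaled to the same library total) over all nuclei of the 18 libraries together. Of 94 genes with such a symbol, 46 reached this level and 48 did not, among 55335 genes in the tables and 11802 genes of at least 5 CPM. The forebrains came from mouse embryos at embryonic day 14 (E14) on a C57BL/6 background and carried 0, 1 or 2 copies of the MYT1L S710fsX allele, a frameshift that ends the protein early, in wild-type (WT), heterozygous (Het) and homozygous (KO) animals respectively. MYT1L is a zinc-finger transcription factor of newborn neurons. There were 3 animals per genotype, each a separate embryo from Het by Het matings over 3 litters, with the meninges removed, and homozygotes do not live after birth. Each animal gave 2 libraries of combinatorial nucleus barcoding, labelled run 1 and run 2 in the sample titles, which do not say how the runs differed. The 2 libraries were summed, so that the animal was the replicate (n = 3 per genotype).

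Potassium channels let potassium leave the cell and thereby set the resting potential, end each action potential and space the next one. Most are built from pore subunits of large gene families that open with voltage (Kv1 to Kv4, the KCNQ channels of the M-current, and the EAG, ERG and ELK channels), with calcium (BK and SK), with sodium, or that leak or rectify inward at rest, while auxiliary subunits change their gating and their transport to the membrane. In the embryonic forebrain radial glia are coupled to each other and hold a very negative resting potential, and neurons acquire voltage-gated currents as they leave the ventricular zone.

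The measurement was UMI counts per gene in 194337 nuclei, 74.4% of 261143 barcodes, with a median of 2518 UMIs and 1536 genes per nucleus. Each animal gave 14779 to 26076 nuclei and 42751865 to 73777992 UMIs before the nuclei were divided among classes. Clustering without any potassium channel gene gave 49 clusters, of which 40 were named from marker genes and 9, with 8.61% of the nuclei, were not. The tested classes were radial glia-like (37152 nuclei), excitatory intermediate progenitor-like (18958), excitatory neuron-like (55917), inhibitory progenitor-like (8311), inhibitory neuron-like (54515) and Cajal-Retzius-like (2019). The names were rebuilt from markers here and can differ from the study's own. The genotype tag of every first-run library read WT, so genotypes were taken from the sample titles. The design text gives mixed sexes per genotype, whereas by Xist and 4 Y-linked genes only WT animal 3 was female. The allele is a frameshift, so Myt1l RNA does not check the labels: in excitatory neuron-like nuclei it stood at 2098 ± 137 CPM in WT and 2656 ± 161 CPM in KO (SD, n = 3 each). Marker genes of other classes were read at low levels, and whether these reads came from free RNA was not tested. In excitatory neuron-like nuclei Gad2 stood at 1.46% of its level in inhibitory neurons and Slc1a3 at 8.47% of its level in radial glia, and in inhibitory neuron-like nuclei Neurod6 stood at 6.72% of its level in excitatory neurons. A class level sums over nuclei, so fewer nuclei with an RNA and less RNA per nucleus cannot be told apart.

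The 46 genes covered nearly every branch of the family. All 4 genes of the Kv4-interacting calcium sensors, 7 of 8 EAG, ERG and ELK genes, 3 of 4 SK genes and all 3 genes of the sodium-activated channels and their sperm relative Kcnu1 were among them. Coverage was thin for the inward rectifiers with 4 of 15 genes, the K2P leak channels with 4 of 14, the Kv1 genes with 3 of 8 and the electrically silent Kv modifiers with 1 of 10 (Kcng1), and none of 5 single-span auxiliary subunits entered. The level of 5 CPM that chose the genes fell among close values: Kcnrg at 5.03 CPM, Kcnk1 at 5.27 CPM and Kcna2 at 5.30 CPM lay just inside, and Kcnk3 at 4.67 CPM, Kcnk12 at 4.56 CPM and Kcnd1 at 4.03 CPM just outside. Counted over the filtered nuclei alone, 44 genes would have entered, without Kcna2 and Kcnk1. The genes lay on 17 chromosomes and spanned 5.37 to 1135 kb with a median of 91.3 kb, and 30 of them overlapped another gene on either strand, where reads may be shared.

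Together the 46 genes took 7377 CPM of all barcodes, and 4 genes held 54.9% of it: the ERG channel gene Kcnh7 (1344 CPM, chr2:62693414-63184287 on the minus strand of mm10), the A-type Kv4 gene Kcnd2 (1003 CPM, chr6:21215503-21729805, plus strand), the M-current gene Kcnq3 (945 CPM, chr15:65986387-66286642, minus strand) and the Kv2 delayed rectifier Kcnb2 (760 CPM, chr1:15287254-15723750, plus strand). Nuclear reads grow with intron length, so levels of different genes were compared per kb of gene span. On that scale Kcnq3 stood at 3.15 and Kcnh7 at 2.74 CPM per kb.

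The summed level of the set differed by class. Its mean over the 9 animals was 4185 CPM in radial glia-like, 4996 in intermediate progenitor-like and 8871 in excitatory neuron-like nuclei, against 3939 CPM in inhibitory progenitor-like, 6823 in inhibitory neuron-like and 12157 CPM in Cajal-Retzius-like nuclei. Of the 46 genes, 15 had their highest mean in Cajal-Retzius-like, 13 in inhibitory neuron-like and 11 in excitatory neuron-like nuclei, 3 each in radial glia-like and intermediate progenitor-like nuclei and 1 in inhibitory progenitor-like nuclei. Among all genes of at least 5 CPM, 15.9% were highest in Cajal-Retzius-like, 10.1% in inhibitory neuron-like and 7.60% in excitatory neuron-like nuclei, and 30.7%, 15.5% and 20.2% in radial glia-like, intermediate progenitor-like and inhibitory progenitor-like nuclei. Per kb of span, radial glia-like nuclei were led by the leak channel gene Kcnk10 at 2.89 ± 0.178 CPM per kb (SD, n = 9 animals), with Kcnh7 at 2.44 and the glial rectifier Kcnj10 at 1.72. Intermediate progenitor-like nuclei were led by Kcnb2 at 2.67 ± 0.227 CPM per kb, ahead of Kcnk10 and Kcnh7, both at 2.23, and inhibitory progenitor-like nuclei by Kcnh7 at 2.82, Kcnk10 at 2.37 and Kcnrg, a suppressor of Kv channels, at 1.62 CPM per kb. In excitatory neuron-like nuclei Kcnq3 stood far ahead at 8.06 ± 0.339 CPM per kb, with Kcna1 at 3.46. Inhibitory neuron-like nuclei had Kcnd2 at 3.12 and Kcnh4 at 2.34 CPM per kb, and Cajal-Retzius-like nuclei Kcnh7 at 9.14 and Kcnb2 at 7.12 CPM per kb.

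**Figure D1:**
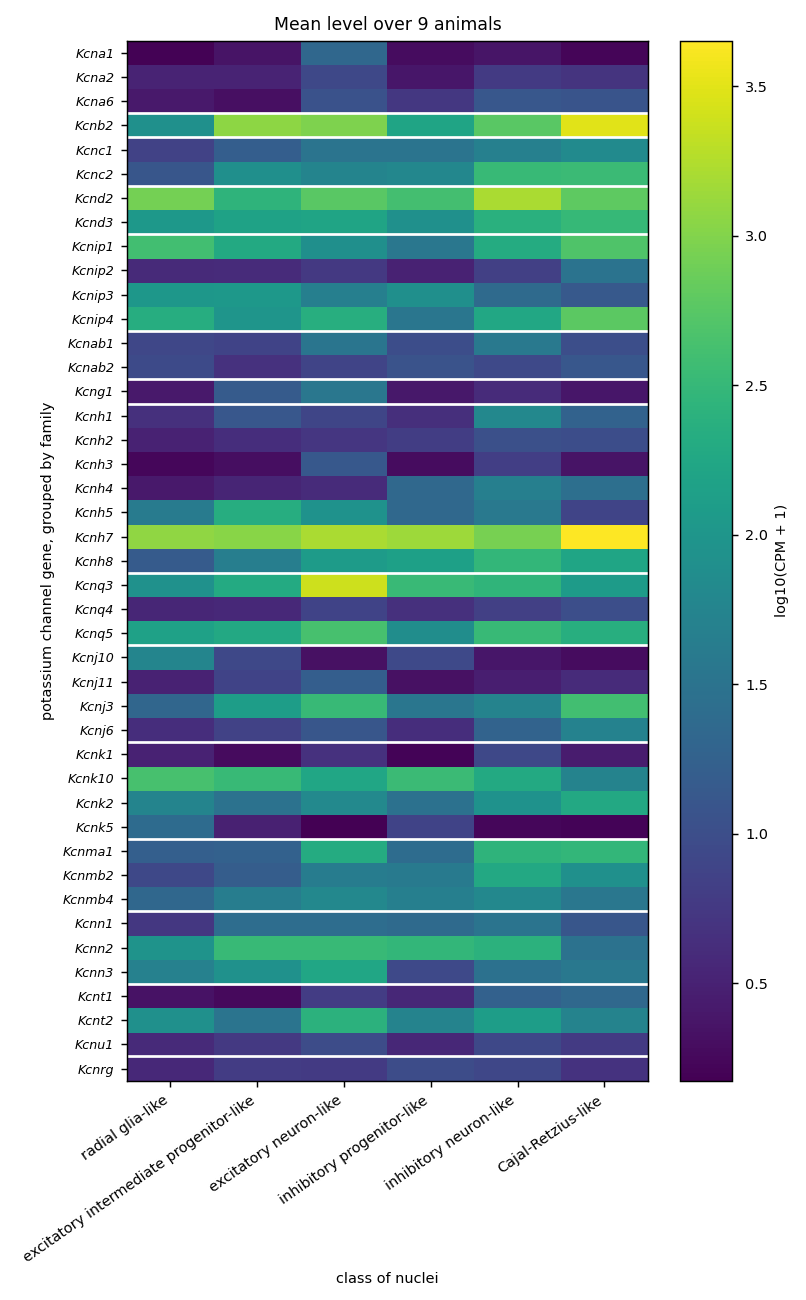
Levels of 43 potassium channel genes (rows, grouped by channel family) in the 6 classes of nuclei (columns). Colour gives log10(CPM + 1) of the mean over 9 animals. Kcnh7 was high in every class, from 861 CPM in inhibitory neuron-like to 4485 CPM in Cajal-Retzius-like nuclei, whereas Kcnq3 reached 2420 CPM in excitatory neuron-like nuclei and stayed at or below 338 CPM in the other classes.

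Most of the set stood higher in excitatory neuron-like than in radial glia-like nuclei. This comparison is called the excitatory lineage here, although the radial glia-like class was not limited to that lineage. Its cluster led by Otx2os1 and Gm29478 (6260 nuclei) held 5 inhibitory progenitor markers beside 9 radial glia markers. Between excitatory neuron-like and radial glia-like nuclei of the same 9 animals, 37 of 46 genes (80.4%) passed the test, 34 higher and 3 lower in neurons, with a median log2 difference of 1.96. Of all genes tested, 32.2% passed the same rule and their median was 0.00. A gene was called here at a Benjamini-Hochberg adjusted p under 0.05 in edgeR's quasi-likelihood test, blocked by animal, and a log2 difference beyond 1. All 3 Kv1, all 3 BK, all 3 SK and all 3 sodium-activated or related genes were higher in neurons, as were 6 of 7 EAG, ERG and ELK genes. Run 1 alone gave 35 calls and run 2 alone 37.

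The M-current gene Kcnq3 combined a high level with a large difference. Kcnq3 lay between 68.3 and 116 CPM in radial glia-like nuclei (median 84.2, 9 animals) and between 2232 and 2509 CPM in excitatory neuron-like nuclei (median 2467). Every animal was far higher in neurons, with a log2 difference of 5.19 ± 0.0707 (SE; edgeR adjusted p = 5.19e-20). The radial glia-like mean was 3.52% of the neuronal one, between the 3.15% and 7.04% at which the excitatory neuron markers Slc17a7 and Neurod6 were read there. The size of the difference depends on this low level, and the source of its reads was not tested.

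Genes with low levels in progenitors showed differences of the same size. Kcna1, a Kv1 pore subunit of axons whose 5.99 kb gene at chr6:126640397-126646384 on the minus strand is among the shortest of the set, lay between 16.0 and 26.2 CPM in excitatory neuron-like nuclei (median 19.6) and between 0.151 and 1.17 CPM in radial glia-like nuclei (median 0.591). The log2 difference was 5.46 ± 0.118 (edgeR adjusted p = 2.04e-17). The radial glia-like mean was 2.84% of the neuronal one, below the shares of Slc17a7 and Neurod6 there. Kcng1, a silent subunit that joins Kv2 channels, reached 28.7 to 46.4 CPM (median 33.6) against 0.621 to 2.73 CPM (median 1.46). Kcnj3, a pore subunit of G protein-gated inward rectifiers, reached 294 to 384 CPM (median 316) against 14.3 to 32.5 CPM (median 18.3). Their log2 differences were 4.87 ± 0.119 and 4.40 ± 0.0778. Their radial glia-like means, at 4.56% and 6.17% of the neuronal ones, lay between the shares of Slc17a7 and Neurod6.

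The 3 genes that were lower in excitatory neurons belong to glial and leak functions or to the calcium sensors. Kcnj10 encodes the inward rectifier Kir4.1, the main potassium-buffering channel of glia, and lay between 43.7 and 63.8 CPM in radial glia-like nuclei (median 60.2) and between 0.640 and 1.95 CPM in excitatory neuron-like nuclei (median 0.983). The log2 difference was -5.30 ± 0.128 (edgeR adjusted p = 1.04e-16). Kcnk5, an acid-sensitive leak channel, went from 18.9 to 26.0 CPM (median 23.1) to 0.292 to 0.931 CPM (median 0.382). The neuronal means of both genes were smaller shares of the radial glia-like ones than the 8.47% of Slc1a3. Kcnip1, a calcium sensor that binds Kv4 channels, went from 317 to 481 CPM (median 379) to 68.1 to 93.9 CPM (median 78.0), a log2 difference of -1.95 ± 0.0645. Kcnk10, the stretch- and lipid-sensitive leak channel TREK-2, had a log2 difference of -0.999 that the rule did not call. The log2 differences carry edgeR's library scaling (TMM) and the CPM levels do not, so calls near the limit depend on it.

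Intermediate progenitor-like nuclei lay between both ends for part of the set. In 13 of 46 genes (28.3%) every one of the 9 animals had radial glia-like below intermediate progenitor-like below excitatory neuron-like nuclei, an order held by 7.23% of the genes of at least 5 CPM. The opposite order was held by 4 genes (8.70% against 22.3%), namely Kcnk10, Kcnip1, Kcnj10 and Kcnk5. Another pattern was a peak in intermediate progenitor-like nuclei. There the EAG channel gene Kcnh5 lay between 194 and 228 CPM (median 217, 9 animals) against means of 40.6 CPM in radial glia-like and 88.6 CPM in excitatory neuron-like nuclei.

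In the inhibitory lineage most of the set stood higher in neurons too. Between inhibitory neuron-like and inhibitory progenitor-like nuclei, 30 of the 46 (65.2%) passed the test, with 27 above and 3 below, and with a median log2 difference of 1.35, against 27.1% and 0.01 among all genes tested. Both Kv4 pore genes, 3 of 4 of the calcium sensors that bind them, all 3 sodium-activated or related genes and 5 of 7 EAG, ERG and ELK genes were higher, but only 1 of 3 SK genes. Of the 27 genes higher here, 22 were also among the 34 higher in the excitatory lineage (81.5% and 64.7% of these lists), and the other 5 were Kcnd2, Kcnd3, Kcnip1, Kcnip4 and Kcnk2. Run 1 alone gave 27 calls among 43 genes tested and run 2 alone 31 of 46.

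The Kv4 pore genes and 3 of the 4 sensors were higher in inhibitory neurons. Kcnd2 lay between 350 and 448 CPM in inhibitory progenitor-like nuclei (median 423) and between 1444 and 1683 CPM in inhibitory neuron-like nuclei (median 1632), a log2 difference of 2.13 ± 0.0367 (edgeR adjusted p = 7.36e-26). Kcnip1 went from 29.1 to 48.4 CPM (median 31.8) to 156 to 235 CPM (median 208), and its log2 difference of 2.72 ± 0.0551 had the opposite sign to that in the excitatory lineage. Kcnip4 went from 26.7 to 43.7 CPM (median 31.4) to 131 to 252 CPM (median 183), a log2 difference of 2.55 ± 0.0671. Kcnip3 was the exception among the sensors. This gene, whose protein also acts as a calcium-dependent transcriptional repressor, lay between 63.8 and 96.8 CPM in progenitors (median 78.8) and between 20.2 and 25.9 CPM in neurons (median 23.4), a log2 difference of -1.60 ± 0.0557.

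Large differences were also seen for EAG, BK and Kv3 genes. Kcnh1, the EAG1 pore gene, went from 1.27 to 7.59 CPM (median 3.19) in inhibitory progenitor-like to 50.1 to 68.7 CPM (median 61.4) in inhibitory neuron-like nuclei, a log2 difference of 4.38 ± 0.112 (edgeR adjusted p = 3.83e-22). Kcnma1, the pore of the BK channel, went from 18.4 to 35.6 CPM (mean 24.6) to 198 to 303 CPM (median 277), a log2 difference of 3.61 ± 0.0695. Kcnc2, a Kv3 gene of fast-spiking interneurons, went from 37.4 to 84.5 CPM (median 58.1) to 296 to 364 CPM (median 318), with no overlap between the classes in any animal. Kcnq3 did not follow its excitatory course: its log2 difference was -0.13, with means of 338 CPM in progenitors and 277 CPM in neurons.

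**Figure D2:**
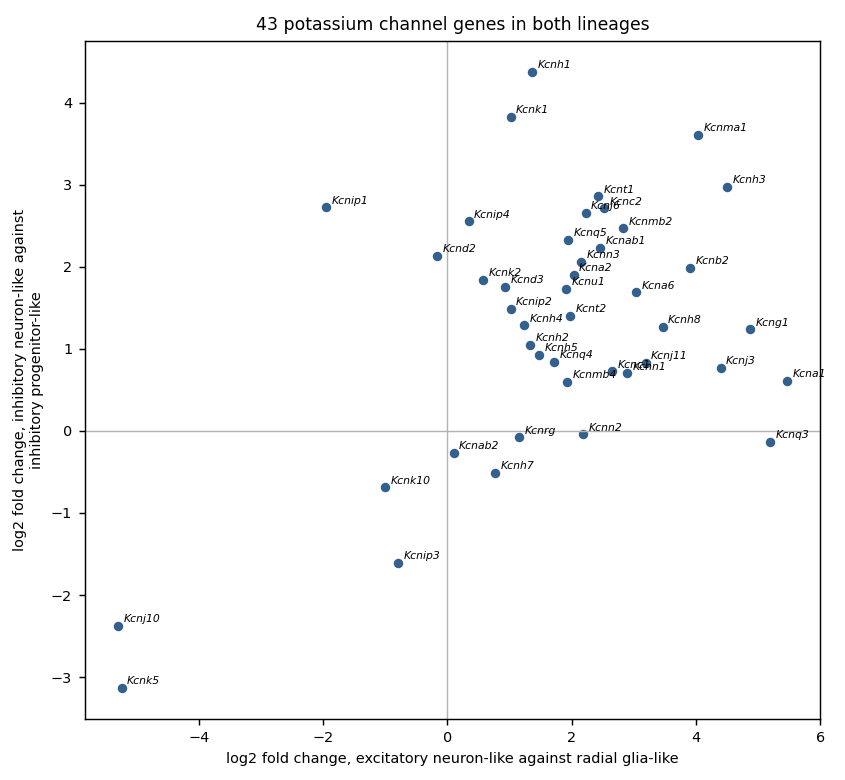
Each point is 1 of 43 potassium channel genes. The x axis is the log2 difference of excitatory neuron-like against radial glia-like nuclei and the y axis that of inhibitory neuron-like against inhibitory progenitor-like nuclei. Kcnq3 lies far right at 5.19 and near 0 on the y axis (-0.13), Kcnip1 lies at -1.95 and 2.72, and Kcnj10 is low on both axes at -5.30 and -2.38.

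Set against each other, the neuron classes differed in 20 of 46 genes (43.5%), 10 higher and 10 lower in inhibitory neuron-like nuclei, while 13.1% of all genes tested passed. Genes higher in inhibitory neurons included the ELK gene Kcnh4, which lay between 38.9 and 52.9 CPM (median 45.8) against 1.29 to 4.46 CPM (median 2.82) in excitatory neurons, a log2 difference of 3.91 ± 0.0768 (edgeR adjusted p = 1.63e-16). Kcnh1 (3.04 ± 0.0614), Kcnc2 (2.55 ± 0.0504), the BK auxiliary subunit gene Kcnmb2 (2.10 ± 0.0555) and Kcnd2 (1.403 ± 0.0275) were higher as well. On the other side stood Kcna1 (-4.05 ± 0.128), Kcng1 (-3.62 ± 0.103), Kcnq3 (-3.19 ± 0.0605), Kcnj3 (-2.71 ± 0.0602) and the SK gene Kcnn3 (-2.65 ± 0.0688). Kcna1 in inhibitory neurons, at 6.52% of its excitatory level, was below the 6.72% of Neurod6 and above the 3.42% of Slc17a7.

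Cajal-Retzius-like nuclei, early-born neurons of the marginal zone, held the highest summed level, with Kcnh7 and Kcnb2 at means of 4485 and 3109 CPM. Part of their profile was shared with inhibitory neuron-like nuclei. There Kcnh4 had a mean of 45.7 CPM and Kcnc2 one of 328 CPM, against 26.5 and 351 CPM in Cajal-Retzius-like nuclei. Compared with excitatory neurons, 28 of the 46 (60.9%) passed, with 11 above and 17 below, and 16.4% of all genes tested did so. Kcnh7 lay between 4089 and 5044 CPM (median 4423, 9 animals) against 1490 to 1803 CPM (median 1590), and Kcnb2 between 2872 and 3270 CPM (median 3163) against 886 to 1023 CPM (median 957). No animal overlapped in either gene, and the log2 differences were 1.30 ± 0.0438 and 1.53 ± 0.0426. Kcnip2, a calcium sensor best known from heart muscle, lay between 23.5 and 38.9 CPM (median 30.03) against a mean of 4.65 CPM, a log2 difference of 2.53 ± 0.146. Kcnh4 (2.99 ± 0.170), Kcnc2 (2.52 ± 0.0560), Kcnip1 (2.41 ± 0.0600) and Kcnj6 (1.97 ± 0.112) were higher as well. All 3 SK genes were lower, with Kcnn2 at a mean of 29.98 CPM against 327 CPM (-3.64 ± 0.0835), and so were Kcnq3 at a median of 121 CPM (-4.49 ± 0.0632), Kcnh5 (-3.81 ± 0.140), Kcng1 (-4.76 ± 0.233) and Kcna1 (-4.97 ± 0.319, at a mean of 0.692 CPM in these nuclei). The levels of Kcnq3, Kcng1 and Kcna1 here, at 5.00%, 3.97% and 3.34% of those in excitatory neurons, were below the 5.53% at which Neurod6 was read. Slc17a7 was read at 3.35%, below Kcnq3 and Kcng1. This class held 149 to 313 nuclei and 566067 to 1041952 UMIs per animal, the fewest of the classes tested, and its level for genes of a few CPM rests on few UMIs.

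The other branches of the family had their own orders of level. Among the SK genes, whose channels carry the medium after-hyperpolarization, Kcnn2 had close means in intermediate progenitor-like and excitatory neuron-like nuclei (332 and 327 CPM), lower in radial glia-like (91.7 CPM) and lowest in Cajal-Retzius-like nuclei. Kcnn3 reached a mean of 171 CPM in excitatory and 28.8 CPM in inhibitory neuron-like nuclei. Kcnt2, a sodium-activated channel, leaned the same way with 254 and 126 CPM (log2 difference -1.07 ± 0.0304), whereas its relative Kcnt1 leaned to inhibitory neurons (1.61 ± 0.101) at means of 16.7 against 5.29 CPM.

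Leak channels and inward rectifiers divided by gene. Kcnk10 had means of 430, 332 and 169 CPM in radial glia-like, intermediate progenitor-like and excitatory neuron-like nuclei and 52.5 CPM in Cajal-Retzius-like nuclei, whereas its close relative Kcnk2 was highest in the last class with 184 CPM (log2 difference from excitatory neurons 1.36 ± 0.0575). Kcnj6, which forms G protein-gated channels with Kcnj3, lay between 26.5 and 80.6 CPM in Cajal-Retzius-like nuclei (median 47.8) against a mean of 11.7 CPM in excitatory neuron-like nuclei. Kcnj11, the pore of ATP-sensitive potassium channels, lay between 9.56 and 18.8 CPM in excitatory (median 17.3) and between 1.21 and 2.63 CPM in inhibitory neuron-like nuclei (median 1.92), a log2 difference of -3.06 ± 0.129.

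Kcnd3 and the Kv beta subunit gene Kcnab1 had overlapping levels in some pairs of classes. Kcnd3, the other Kv4 gene of the set, lay between 144 and 176 CPM in excitatory neuron-like nuclei and between 132 and 176 CPM in intermediate progenitor-like nuclei, ranges that overlap, and was higher in inhibitory neuron-like than progenitor-like nuclei by 1.75 ± 0.0386 on the log2 scale. The Kv beta subunit gene Kcnab1 lay between 29.7 and 39.6 CPM in excitatory and between 29.6 and 43.7 CPM in inhibitory neuron-like nuclei (log2 difference 0.13 ± 0.0583, edgeR adjusted p = 0.069). Kcnab2, at means of 3.70 to 12.1 CPM over the 6 classes, was the only gene of the 46 that was called in none of the 4 comparisons between classes.

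Within the neuron classes the genes varied from cluster to cluster. Among inhibitory neuron-like clusters, Kcnd2 was highest at 3382 CPM in the cluster led by Tshz1 and Gm15155, and Kcnc2 at 910 CPM in the cluster led by Gbx1 and Pde3a. Kcnmb2 reached 2045 CPM in a cluster of 274 nuclei that held 0.012 to 0.022% of WT nuclei but up to 1.09% of those of a Het animal, and 576 CPM in the cluster led by Nxph2 and Dgkg. Among excitatory neuron-like clusters Kcnq3 was highest at 3690 CPM in the cluster led by Btbd11 and Abcc8. These values sum all animals and were not tested.

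Genes whose products work with these channels differed between the classes as well. The list of 25 held auxiliary subunits, scaffolds, related HCN channels and regulators, and 22 of them were tested in neurons. Between excitatory neuron-like and radial glia-like nuclei 15 were called, against 32.2% of all genes tested, and 14 of them were higher, including Abcc8, the sulfonylurea receptor that pairs with Kcnj11 (log2 difference 5.93), Cntn2 of axonal Kv1 clusters (5.28), Lgi1, a secreted partner of Kv1 complexes (4.60), and Ank3, which anchors KCNQ channels at the axon initial segment (4.23), while Lgi2 was lower (-1.74). In the inhibitory lineage 15 were called, against 27.1% of all genes tested, and all 15 were higher, among them the Kv4 auxiliary subunit genes Dpp10 (4.36) and Dpp6 (1.48). Dpp10 and Dpp6 were also higher in inhibitory than in excitatory neuron-like nuclei, by 2.75 and 1.66 on the log2 scale, the direction also seen for Kcnd2. Both were higher in excitatory neuron-like than in radial glia-like nuclei too, by 2.66 and 1.67. There Kcnd2 did not share the direction, with means of 584 CPM in excitatory neuron-like and 836 CPM in radial glia-like nuclei, and was not called.

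Loss of MYT1L went with calls of 3 of these genes in the fit without a replicate block, all in excitatory neuron-like nuclei. There the KO differed from the WT in 3 of 45 genes tested (6.67%), against 1.23% of all genes tested and 1.89% of the genes of at least 5 CPM. A gene was called here at an edgeR adjusted p under 0.05 and a log2 difference beyond 0.2. The BK pore gene Kcnma1 and the Kv3 gene Kcnc1 fell and the ELK gene Kcnh8 rose. The median log2 difference of the 45 genes was -0.02, and 12 of the 45 had an unadjusted p under 0.05, against 13.1% of all genes tested. Same-numbered animals of the 3 genotypes deviated together, and a fit blocked by replicate number called 10 of 46 genes (21.7%), 5 higher and 5 lower, against 6.56% of all genes tested. The blocked fit also called 1 gene in inhibitory neuron-like and 2 in Cajal-Retzius-like nuclei.

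Kcnma1 (chr14:23289431-24014491, minus strand, 725.1 kb) fell in the KO. Its level was 249, 218 and 230 CPM in WT animals 1 to 3, 233, 192 and 220 CPM in Het and 175, 147 and 176 CPM in KO. Every KO animal was below every WT and Het animal, with a log2 difference from WT of -0.46 ± 0.0764 (SE; edgeR adjusted p = 0.0120, with the replicate block 1.09e-05). Run 1 alone gave -0.49 and run 2 alone -0.43. The call was lost in run 1 alone and without WT animal 1, WT animal 3 or KO animal 2, with log2 differences of -0.43, -0.47 and -0.40.

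Kcnc1 (chr7:46396497-46438704, plus strand, 42.2 kb) and Kcnh8 (chr17:52602709-52979194, plus strand, 376.5 kb) were near the threshold. Kcnc1 stood at 36.1, 33.2 and 33.8 CPM in WT, 31.5, 32.2 and 32.01 CPM in Het and 26.1, 24.8 and 29.9 CPM in KO. Kcnh8 stood at 111, 103 and 104 CPM in WT, 118, 128 and 117 CPM in Het and 138, 130 and 122 CPM in KO. In neither gene did KO overlap WT. Kcnc1 fell by 0.33 ± 0.0730 on the log2 scale (edgeR adjusted p = 0.0482, with the replicate block 0.00505), and Kcnh8 rose by 0.32 ± 0.0712 (edgeR adjusted p = 0.0497, with the replicate block 0.00135). Both calls were lost when any animal other than KO animal 3 was left out, with log2 differences between -0.34 and -0.29 for Kcnc1 and between 0.27 and 0.34 for Kcnh8. They were also lost in each run alone, with high doublet scores kept and with potassium channel genes allowed in the clustering. That clustering also changed class membership. Both calls were also lost with only the 6 animals compared and without the excitatory neuron-like cluster highest in Kcnip4, led by Il1rapl2 and Chrm2. Kcnc1 thus lost its call in 14 and Kcnh8, which lost it with RLE scaling as well, in 15 of 20 alternatives.

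Kcnip4 had the largest difference of the genes above 20 CPM and missed the threshold without the block. This calcium sensor of Kv4 channels is encoded by the longest gene of the set (chr5:48389502-49524907, minus strand, 1135 kb), which overlaps other annotated genes. Its level was 330, 241 and 267 CPM in WT, 254, 183 and 193 CPM in Het and 215, 163 and 155 CPM in KO. Animal 1 was the highest of each genotype, and the genotypes kept the order WT above Het above KO within each replicate number. The log2 difference of KO from WT was -0.63 ± 0.142 (edgeR adjusted p = 0.0524) and, with the replicate block, -0.63 ± 0.0528 (edgeR adjusted p = 7.95e-07). For Het against WT it was -0.40 (edgeR adjusted p = 1, with the replicate block 0.00156). Run 1 alone gave -0.31 for the KO and run 2 alone -0.67. Without Het animal 1 or without KO animal 1 the KO difference was called, at -0.63 and -0.79, as it was by DESeq2 and without the filter on low counts.

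**Figure D3:**
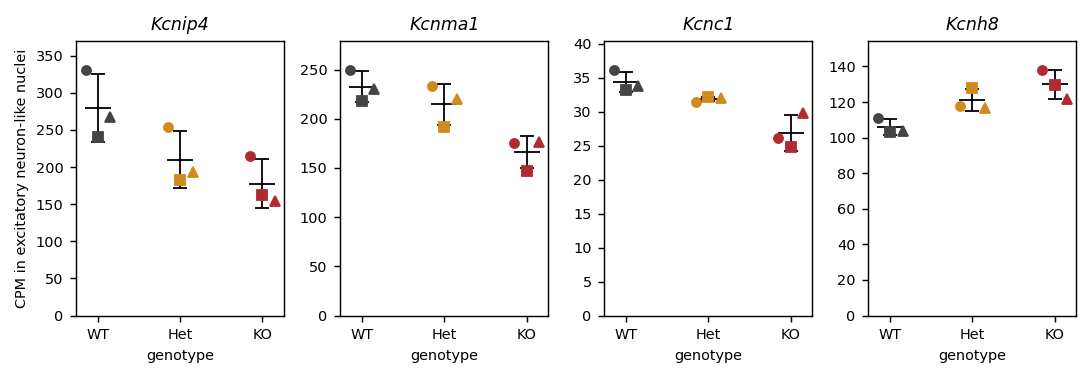
Levels (CPM) of Kcnip4, Kcnma1, Kcnc1 and Kcnh8 in excitatory neuron-like nuclei of each animal, by genotype. Marker shape gives the replicate number, and the bars are the mean and SD of 3 animals. Kcnma1 fell from 232 ± 15.9 CPM in WT to 166 ± 16.3 CPM in KO, and the Kcnip4 means were 279 ± 46.1 and 177 ± 32.8 CPM.

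A further 6 genes were not called in the fit without the replicate block and were called with it. Of these, Kcnmb2 and Kcnn3 were also called by DESeq2 and without the filter on low counts, Kcnt1 without that filter, and Kcnq5 without it and without KO animal 1, while Kcnc2 and Kcna1 were called in the blocked fit and in no other alternative. Kcnmb2 stood at 37.2, 33.2 and 38.7 CPM in WT and 45.01, 39.6 and 50.5 CPM in KO, a log2 difference of 0.33 (edgeR adjusted p = 0.0921, with the block 0.00148). Kcnn3 stood at 144, 162 and 165 CPM in WT and 184, 189 and 186 CPM in KO, a log2 difference of 0.27 (edgeR adjusted p = 0.103, with the block 0.00298). Thus the BK pore gene was lower while its auxiliary subunit gene, under those alternatives, was higher. Kcnt1, a sodium-activated channel, stood at 7.96, 4.21 and 7.79 CPM in WT and 4.05, 1.85 and 4.84 CPM in KO, with an overlap between the groups (edgeR adjusted p = 0.226, with the block 0.00221). Kcnq5 was lower with the block at a log2 difference of -0.23 (edgeR adjusted p = 0.0181), and Kcnc2 and Kcna1 were higher at 0.23 and 0.29.

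**Figure D4:**
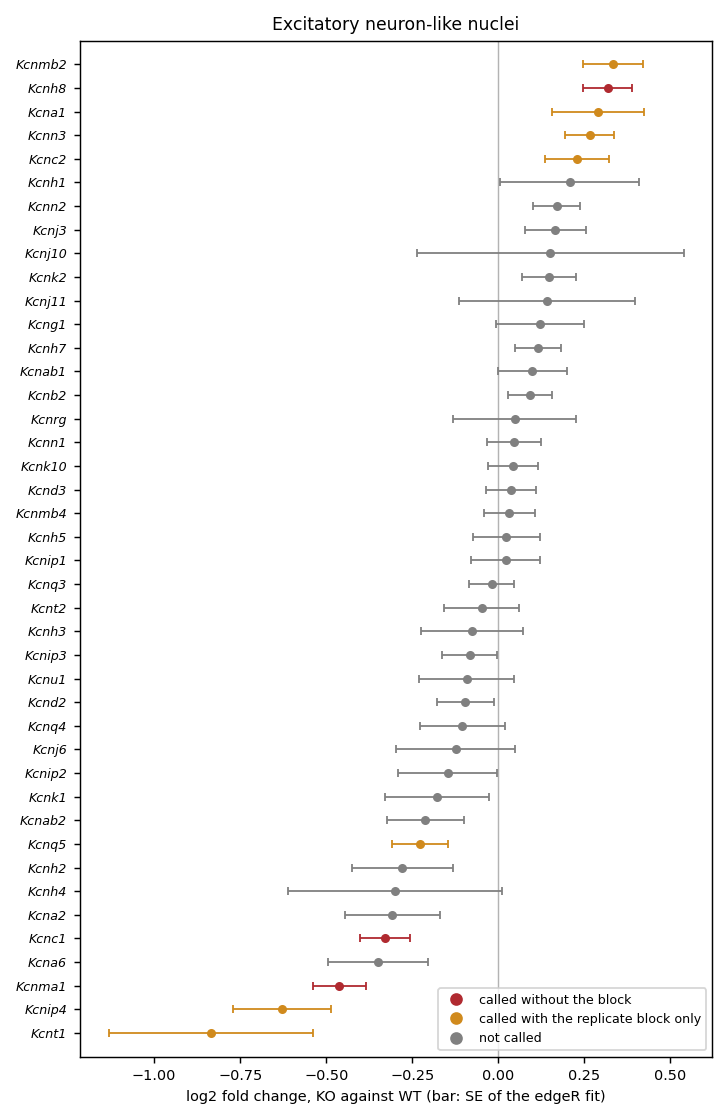
Log2 difference of KO from WT in excitatory neuron-like nuclei (point) with its standard error (bar) for 42 of the genes tested. Red points mark Kcnma1, Kcnc1 and Kcnh8, called in the fit without the replicate block, orange points those called in the blocked fit and not in that one, and grey points those called in neither. Kcnip4 lies at -0.63, Kcnma1 at -0.46, Kcnc1 at -0.33 and Kcnh8 at 0.32.

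Summed markers of some other cell types moved beside these results. In the excitatory neuron-like class the summed diencephalic neuron markers lay at 477 to 539 CPM in WT and 546 to 683 CPM in KO, and those of oligodendrocyte precursors at 101 to 117 and 82.3 to 95.5 CPM. Taken singly, 3 of 7 diencephalic markers (Tcf7l2, Gbx2 and Lef1) and 2 of 6 oligodendrocyte precursor markers (Sox10 and Cacng4) separated KO from WT. The KO and WT ranges of the other 10 marker lists overlapped. KO did not overlap WT in 13 of 46 potassium channel genes (28.3%), against 20.4% of the genes of at least 5 CPM. The part of these markers in the results was not tested.

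The excitatory neuron-like class was then divided into its 9 clusters, a step chosen after the class values were seen. Kcnma1 fell in 4 clusters, those led by Btbd11 and Abcc8, by Tafa1 and Tafa2, by Rgs6 and Hs3st3b1, and by Il1rapl2 and Chrm2, and Kcnip4 in 3 of these. With the replicate block Kcnma1 was also called in the cluster led by Slit3 and Nr4a3 (-0.53, edgeR adjusted p = 0.00252), with 0.626% of all genes called. The number of potassium channel genes called was 4, 5, 3 and 6 in these 4 clusters in that order, against 1.58%, 2.89%, 1.26% and 3.45% of all genes tested there, and 0 in each of the other 5 clusters, where 0%, 0%, 0.0456%, 0.0851% and 0.123% of all genes were called. With the replicate block the counts in the 4 clusters were 5, 7, 6 and 10, against 3.81%, 4.88%, 5.03% and 5.27% of all genes. The count fell to 2 in the Btbd11 cluster without WT animal 3, KO animal 1 or KO animal 2, and to 3 in the Tafa1 cluster without KO animal 2 and in the Il1rapl2 cluster without KO animal 3.

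Of the 9 clusters, the one led by Il1rapl2 and Chrm2 (1867 nuclei) held the highest Kcnip4 level and the largest fall. Unnamed clusters outside the class stood higher, among them one led by Sim1 and Tafa1 at 1104 CPM, which was not tested on its own. In the Il1rapl2 cluster Kcnip4 stood at 1136, 839 and 1121 CPM in WT and 588, 198 and 229 CPM in KO, a log2 difference of -1.62 ± 0.288 (edgeR adjusted p = 0.00193). Kcnma1 stood at 552, 533 and 426 CPM in WT and 388, 305 and 332 CPM in KO, a difference of -0.54 ± 0.112 (edgeR adjusted p = 0.00796). The Kv4 pore gene Kcnd2 also fell, from 1436, 1506 and 1545 CPM to 1128, 1075 and 1032 CPM (-0.44 ± 0.0835, edgeR adjusted p = 0.00330). Its log2 difference over the whole class was -0.10, and a link between the changes of Kcnd2 and Kcnip4 was not tested. Kcnq5 and Kcnip1 fell in the Il1rapl2 cluster too, at log2 differences of -0.66 and -0.81, and Kcnh7 rose by 0.43. The Kcnip1 call was lost in run 2 alone. The cluster made up 3.88 ± 0.783% of the class in WT and 2.69 ± 0.282% in KO, without overlap. The Slit3 cluster, lowest of the 9 in Kcnip4 at 29.8 CPM, made up 7.15 ± 0.572% in WT and 9.83 ± 2.49% in KO, and the Btbd11 cluster 15.6 ± 0.222% and 14.8 ± 0.953%, also without overlap, and the part of these shares in the class values was tested only for the Il1rapl2 cluster. Without it, 1 gene of the set was called in the class against 0.799% of all genes tested, and it was Kcnma1 at -0.42 (edgeR adjusted p = 0.0234), and Kcnip4 differed by -0.46 (edgeR adjusted p = 0.122). With the replicate block 9 genes were called without the cluster, against 5.71% of all genes tested, Kcnip4 among them at -0.47 (edgeR adjusted p = 1.80e-05).

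The cluster led by Tafa1 and Tafa2 (5032 nuclei) showed changes in both directions. Kcnip4 stood at 513, 361 and 387 CPM in WT and 295, 204 and 238 CPM in KO (-0.75 ± 0.130, edgeR adjusted p = 0.00199), and Kcnq5 fell from 92.9, 94.1 and 79.7 CPM to 72.4, 32.7 and 36.7 CPM (-0.92 ± 0.201, edgeR adjusted p = 0.0120). The SK gene Kcnn3 rose there from 49.9, 60.7 and 55.8 CPM to 101, 102 and 96.9 CPM, a log2 difference of 0.86 ± 0.123 (edgeR adjusted p = 4.17e-04). Every KO animal of this cluster lay far above every WT animal in Kcnn3, and Kcnh8 rose as well, by 0.38, a call that was lost in run 2 alone.

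The cluster led by Btbd11 and Abcc8 (8497 nuclei) had the lowest Kcnip4 level of the 4. Kcnip4 stood at 68.4, 66.7 and 69.6 CPM in WT and 34.6, 21.9 and 33.2 CPM in KO, with no overlap and a log2 difference of -1.15 ± 0.139 (edgeR adjusted p = 3.79e-04). Kcnmb2 rose from 11.8, 14.1 and 13.8 CPM to 34.8, 25.3 and 35.2 CPM, a log2 difference of 1.28 ± 0.188 (edgeR adjusted p = 0.00175), beside a fall of Kcnma1 by 0.45. In the cluster led by Rgs6 and Hs3st3b1, Kcnma1, Kcnq5 and Kcnc1 fell at log2 differences of -0.41, -0.45 and -0.46, but the number of genes called there was 0 in run 2 alone and 0 or 1 when any animal other than KO animal 1 was left out. Kcnip4 was called with the replicate block (-0.50, edgeR adjusted p = 0.00121) and not without it. In the cluster led by Adamtsl3 and Nrp1 the Kcnip4 levels overlapped, with 123, 154 and 190 CPM in WT and 151, 168 and 164 CPM in KO. Whether the KO difference of a gene differed between these clusters was not tested. As a description, the log2 ratio of Kcnip4 in the Il1rapl2 cluster, chosen after the values were seen, to its level in the rest of the class was 1.98 to 2.29 in WT and 0.29 to 1.54 in KO, and that of Kcnma1 was 0.94 to 1.39 in WT and 0.97 to 1.21 in KO, with overlap.

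The replicate block added calls in 6 of the 9 clusters, and the values that follow are from the blocked fit. The SK gene Kcnn3 was higher in the Rgs6 and Il1rapl2 clusters, at log2 differences of 0.25 (edgeR adjusted p = 0.0447) and 0.58 (edgeR adjusted p = 0.0302), the direction it had in the Tafa1 cluster in both fits. Kcnc1 was lower in the Tafa1 and Il1rapl2 clusters at -0.73 (edgeR adjusted p = 0.0171) and -0.95 (edgeR adjusted p = 0.0466). In the Il1rapl2 cluster Kcnmb2 and the Kv1 auxiliary gene Kcnab1 were higher as well, at 0.78 and 0.77 (edgeR adjusted p = 0.0181 and 0.00761). Kcnab1 stood there at 75.1, 52.7 and 67.7 CPM in WT and 111, 113 and 96.6 CPM in KO, without overlap, whereas the sodium-activated channel gene Kcnt2 in the Rgs6 cluster, called at -0.29 (edgeR adjusted p = 0.0144), overlapped at 619, 405 and 529 CPM in WT and 511, 351 and 394 CPM in KO. The SK gene Kcnn2 was called in the Btbd11 cluster at 0.28 (edgeR adjusted p = 0.0349), the leak channel gene Kcnk2 in the Tafa1 cluster at 0.34 (edgeR adjusted p = 0.0243) and Kcnh8 in the cluster led by Tfap2d and Sema3c at 0.31 (edgeR adjusted p = 0.0351), with 0.981% of all genes called in that last cluster. Heterozygous animals had Kcnip4 called in the Tafa1 cluster at -0.50 (edgeR adjusted p = 0.00233) and in the Il1rapl2 cluster at -1.01 (edgeR adjusted p = 0.00182), with 0.121% and 0.0358% of all genes called.

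**Figure D5:**
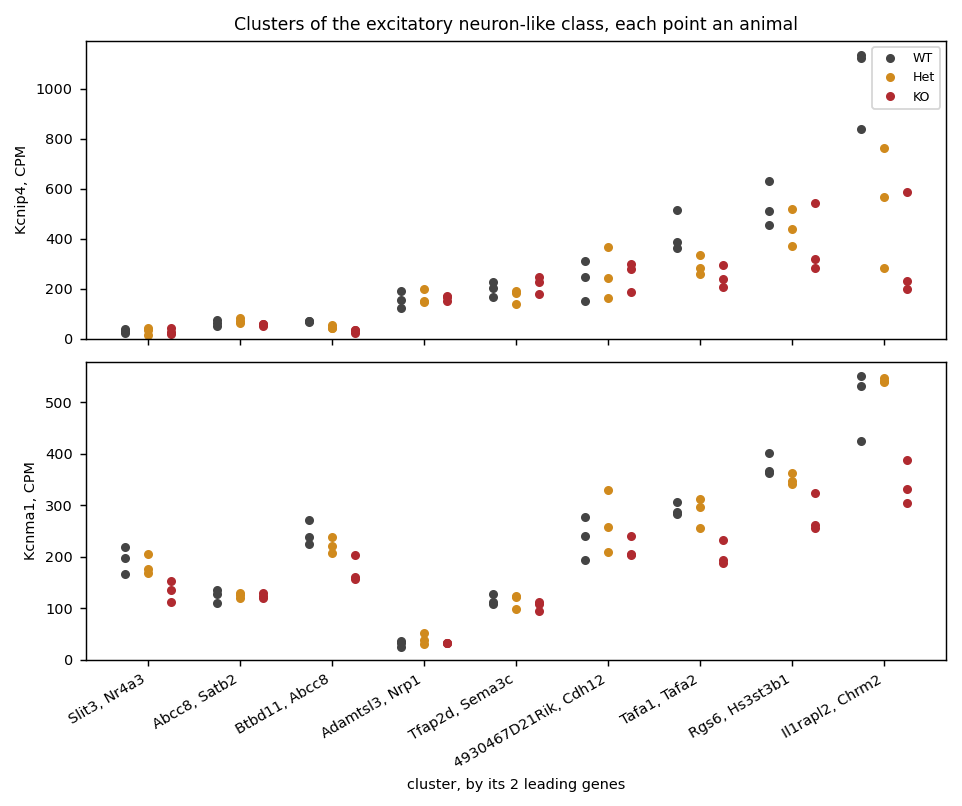
Kcnip4 and Kcnma1 levels (CPM) of each animal in the 9 excitatory neuron-like clusters, named by their leading genes, by genotype. In the cluster led by Il1rapl2 and Chrm2 the KO animals lie at 198 to 588 CPM of Kcnip4 and the WT animals at 839 to 1136 CPM, while in the cluster led by Adamtsl3 and Nrp1 the genotypes overlap.

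No potassium channel gene was called in the KO of the other classes in the edgeR fit with the filter and without the block, nor by DESeq2. In Cajal-Retzius-like nuclei 7 of 31 genes had an unadjusted p under 0.05, against 9.27% of all genes tested, and in intermediate progenitor-like nuclei 5 of 41, against 3.91%. The counts were 3 of 35 in inhibitory progenitor-like nuclei (2.66% of all genes), 2 of 46 in inhibitory neuron-like nuclei (5.87%) and 1 of 44 in radial glia-like nuclei (2.74%). At the adjusted call, 0.0158% of all genes passed in inhibitory neuron-like and 0.25% in Cajal-Retzius-like nuclei, and 0% in the other 3 classes. With the replicate block Kcnh8 was called in inhibitory neuron-like nuclei, at 281, 294 and 264 CPM in WT and 311, 357 and 305 CPM in KO (0.24, edgeR adjusted p = 0.0445, with 0.702% of all genes called). Kcnk2 and Kcnc1 were not called there although KO and WT did not overlap, with log2 differences of 0.13 and -0.10. The block also called Kcnd2 in Cajal-Retzius-like nuclei, at 809, 508 and 641 CPM in WT and 512, 432 and 449 CPM in KO (-0.47, edgeR adjusted p = 0.0374), and Kcnc2 there, at 328, 222 and 295 CPM in WT and 464, 369 and 361 CPM in KO (0.51, edgeR adjusted p = 0.0369), with 0.976% of all genes called there. In that class 3 marker lists separated KO from WT as well, those of inhibitory progenitors (11.9 to 27.8 against 31.0 to 36.5 CPM), excitatory neurons (1055 to 1208 against 1217 to 1255 CPM) and diencephalic neurons (371 to 437 against 326 to 351 CPM), and their part was not tested. Taken singly, 2 of 8 inhibitory progenitor markers separated, and 0 of 10 excitatory neuron and 0 of 7 diencephalic neuron markers did.

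Over all nuclei summed per animal no gene of the set was called, and 3 of 46 had an unadjusted p under 0.05, against 5.7% of all genes. With the block Kcnip4 (-0.26) and Kcnma1 (-0.30) were called, against 0.546% of all genes tested.

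The difference between the neuron classes did not itself pass the test. Kcnma1 stood at 294, 273 and 278 CPM in WT and 277, 198 and 269 CPM in KO inhibitory neuron-like nuclei, and Kcnip4 at 215, 152 and 199 CPM and 252, 131 and 154 CPM, with overlap in both genes. The KO difference in inhibitory minus that in excitatory neuron-like nuclei was 0.29 ± 0.0681 on the log2 scale for Kcnma1 (edgeR adjusted p = 0.228) and 0.55 ± 0.143 for Kcnip4 (edgeR adjusted p = 0.332). None of the 46 genes passed, against 0.0871% of all genes tested, and 5 of the 46 had an unadjusted p under 0.05, against 6.23% of all genes.

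Heterozygous animals gave no call in any class in the edgeR fit with the filter and without the block, nor by DESeq2. In excitatory neuron-like nuclei 3 of 45 genes had an unadjusted p under 0.05, against 3.42% of all genes, and no gene of the whole table was called. With the block Kcnip4 alone was called in that class, and 0.046% of all genes tested. Of the partner genes, 1 was called in KO excitatory neuron-like nuclei, where 1.23% of all genes were, and it was Dlg1, a scaffold that binds Kv1 and inward rectifier channels, at 423 ± 2.68 CPM in WT and 538 ± 27.5 CPM in KO (log2 difference 0.37, edgeR adjusted p = 0.0120). With the block 8 were called, against 6.56% of all genes tested. Beside Dlg1 these were Lrrc55, Cntn2, Ank2 and Rest at log2 differences of 0.45, 0.26, 0.21 and 0.37, and Hcn4, Lgi2 and Slc12a5 at -0.40, -1.08 and -0.85 (edgeR adjusted p of 0.00140 to 0.0203). In inhibitory neuron-like nuclei the block called Dlg1 at 0.26 and Abcc8 at -0.51 (edgeR adjusted p = 0.0251 and 0.0445).

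MYT1 family proteins bind DNA at the core AAGTT, so the promoters of the set were read for it on either strand, in RefSeq windows of GRCm38.p6 from 250 bases before to 50 bases after a start. The table held 52 windows for 33 of the 46 genes. AAGTT was found in 15 of these windows (28.8%) and in 12918 of 32851 windows of all genes (39.3%), and the median GC content was 62.2% against 52.7%. A match is a description of the letters and not of binding. The windows of Kcnip4 and Kcnc1 are shown because both genes were lower in KO excitatory neurons and differ in sequence. The first lines give the 100 bases before a start with each CG in capitals, 4 in Kcnip4 (chr5:49285660-49285759, minus strand) and 14 in Kcnc1 (chr7:46396368-46396467, plus strand). The last line gives the stretch of another Kcnip4 start that holds the motif, in capitals (chr5:48599890-48599919, minus strand).
Kcnip4: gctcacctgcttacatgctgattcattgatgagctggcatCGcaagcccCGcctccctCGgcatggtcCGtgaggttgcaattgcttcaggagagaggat
Kcnc1: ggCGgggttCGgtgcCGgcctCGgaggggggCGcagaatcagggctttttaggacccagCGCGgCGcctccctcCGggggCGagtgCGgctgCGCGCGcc
Kcnip4, other start: tctctccggggcAAGTTccttgggagtgtc
The GC content of the 100 bases was 56% in Kcnip4 and 77% in Kcnc1. No window of Kcnma1 or Kcnh8 in the table held AAGTT.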

How the data were processed

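Nuclei of E14 mouse forebrain were profiled by single-nucleus RNA sequencing (Scale Biosciences) in 9 animals and 18 libraries. The deposited matrices hold expected counts of UMIs that the authors made with the ScaleRna pipeline on mm10, and 6.70 to 8.71% of the entries per library were not whole, so sums were rounded. The submitters' processing notes also name Seurat 4.3.0, DESeq2 1.38.3 and Scanpy 1.12.0. Nuclei with 800 to 6000 UMIs, 300 to 3000 genes, at most 1% mitochondrial counts and a log ratio of at least 0.9 were kept, as in the study. Scrublet marked 0 to 16.6% of a library by itself, so the top 5% of doublet scores were removed instead. The runs shared 311 barcodes within an animal and 2457 between animals, and libraries of run 2 shared 972.

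Nuclei were clustered in scanpy 1.11.5 on 3000 variable genes without potassium channel genes, with 50 components and resolution 2, raised after a first look. Clusters were named by a rule set with the data in view, from at least 3 markers. Counts were summed per animal and class (at least 20 nuclei) and tested in edgeR 4.0.16 (R 4.3.3) with TMM scaling and filterByExpr, one model over all 9 animals. Differences between classes carried the animal as a block. Samples were grouped by title. Replicate numbers are in the titles. Deviations of same-numbered animals from their genotype means correlated at 0.231 to 0.714 in each of 9 pairs in 3 classes. Those of other pairs correlated at -0.597 to 0.212. The numbers were therefore taken to pair the animals, although the titles do not say what they mark. This pairing was inferred from the same nuclei that were tested. Blocked values are given where they change a call. The genotype fit without the replicate block, the comparison of classes and the difference of KO changes between neuron classes were run on simulated counts. Those counts were drawn without a shared deviation of same-numbered animals. The fit with the replicate block was not simulated. Alternatives were DESeq2 1.42.0, RLE scaling, no filter, each run alone, doublets kept, no upper limits, potassium channel genes allowed in clustering, each animal left out and only the 6 animals compared. Leaving out a cluster and the tests by cluster were chosen after the data were seen.

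Genes were named by rule: those called by genotype, the 3 highest per kb of span in each class, the 5 largest called differences each way between classes with at least 20 CPM in the higher class, the 5 lowest p-values without overlap of KO and WT in each neuron class, the 3 genes on each side of 5 CPM, and 16 well-known channels. Other names were chosen after their values were seen. The potassium channel genes, families, partner genes and tests were chosen with earlier results of these data known. Depth per class and animal limits precision, and SD and SE cover 3 or 9 animals. Coordinates are those of GENCODE vM21 on mm10, and promoter windows are RefSeq. The results of some genes of the set are not reported here and those genes are not drawn, while counts over the set include them.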

Additional observations from a re-analysis of the deposited data

How the results depend on the processing

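No called difference between classes and no KO difference recomputed for a named gene changed sign under the alternatives run. Of 184 differences of potassium channel genes between classes 10 changed sign, none of them called, Kcnq3 in the inhibitory lineage among them, and of 88 of partner genes 9 did, none called. The number of potassium channel genes called in KO excitatory neuron-like nuclei, 3 as reported, was 6 by DESeq2, 8 without the filter on low counts, 10 with the replicate block, 0 in run 1 alone, and 1 each in run 2 alone, with high doublet scores kept, with potassium channel genes allowed in the clustering, with only the 6 animals compared and without the cluster led by Il1rapl2 and Chrm2. The shares of all genes called in the fit as reported, with the replicate block and without that cluster are given above. For the other alternatives, and for each animal left out, that share is not given here. A changed count there is therefore not a result about the set. Without the filter 1 gene was called in Het radial glia-like, 1 in Het excitatory neuron-like, 2 in KO and 2 in Het Cajal-Retzius-like nuclei, each 0 as reported. Without upper limits on UMIs and genes 2 were called in KO Cajal-Retzius-like nuclei. With potassium channel genes allowed in the clustering, a cluster led by Sim1 and Tafa1 (5050 nuclei) was named excitatory neuron-like. In the clustering used elsewhere, the cluster led by these 2 genes (3929 nuclei) was unnamed. The replicate block called 1 gene in Het excitatory neuron-like, 1 in KO inhibitory neuron-like, 2 in KO Cajal-Retzius-like and 2 in all KO nuclei, and 1, 1, 6 and 10 genes in the excitatory clusters led by Slit3, Tfap2d, Rgs6 and Il1rapl2, against 0, 0, 3 and 6. It raised the counts of the Btbd11 and Tafa1 clusters from 4 to 5 and from 5 to 7, that of the class without the Il1rapl2 cluster from 1 to 9, and the Het counts of the Tafa1 and Il1rapl2 clusters from 0 to 1 each. In run 2 alone the Rgs6 cluster gave 0.

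Leaving out each animal in turn moved the count in KO excitatory neuron-like nuclei between 0 and 6. It was 0 without WT animal 1, WT animal 3 or KO animal 2, 1 without WT animal 2, Het animal 2 or Het animal 3, and 6 without KO animal 3. In KO Cajal-Retzius-like nuclei it ranged from 0 to 1, with 1 without WT animal 2. The clusters led by Btbd11, Tafa1, Tfap2d, Rgs6 and Il1rapl2 ranged from 2 to 6, 3 to 6, 0 to 1, 0 to 3 and 3 to 7. The count was 2 in the Btbd11 cluster without WT animal 3, KO animal 1 or KO animal 2, 3 in the Tafa1 cluster without KO animal 2, 1 in the Tfap2d cluster without KO animal 3 and 3 in the Il1rapl2 cluster without KO animal 3. In the Rgs6 cluster it was 0 without WT animal 1, WT animal 3, KO animal 2 or KO animal 3 and 1 without WT animal 2 or any Het animal. The cause of these moves was not tested. The counts between classes ranged over 36 to 38, 29 to 31, 19 to 21 and 26 to 29 in the order reported when an animal was left out, and over 35 to 38, 27 to 34, 19 to 21 and 25 to 29 over all alternatives, with 43 to 46 genes tested. Cajal-Retzius-like nuclei of run 1 alone could not be fitted. With 3 animals per genotype, and few UMIs per animal in Cajal-Retzius-like nuclei, small differences could be missed.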

Other observations

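A cluster of 728 nuclei, all from Het animal 1, carried diencephalic neuron markers and entered no comparison. Its levels were 1193 CPM of Kcnh7, 758 CPM of Kcnd2, 701 CPM of Kcnb2 and 646 CPM of Kcnq3, from 1949341 UMIs. The cluster highest in Kcnip4 of all 49 was an unnamed one led by Ebf2 and Cdh23, at 1927 CPM, and it entered no class. In the cluster of radial glia-like nuclei led by Sned1, Kcnip1 reached 1314 CPM, the highest of any cluster.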
